A study of Mus musculus with 34 samples.

Results

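Hair follicle stem cells (HFSCs) with intact Rxra were compared between culture with apoptotic corpses and the late-catagen follicle, to describe what culture changes in stem cell chromatin. The members were the 4 libraries labelled corpses Rxra WT and the 4 labelled CatVII Rxra WT, 8 of the 34 libraries in the series. Each is an ATAC-seq peak list: a transposase cuts accessible DNA, and stretches with more fragments than the local background are called as peaks. The corpse cultures were primary lines from the second telogen, Rxra+/+ with Sox9-creER and R26-YFP fl/fl, which had received 4-hydroxytamoxifen and been sorted for YFP. They grew on growth-arrested fibroblast feeders and were given cisplatin-killed HFSCs, the corpses, for some hours. The late-catagen cells came from back skin of tamoxifen-treated mice. The supplement describes the Rxra WT donors of these sorts as Rxra+/+ with Sox9-creER and R26-YFP fl/+, and YFP took the place of CD34 beside ITGA6 in the gate. The general methods also allow controls without Sox9-creER or with Rxra fl/+. YFP marks only cells in which the Sox9-creER transgene was active. The cultured Rxra WT lines are stated to come from female mice, and the corpses were made from lines of male mice. Culture, corpse exposure, feeder layer, hair cycle stage of origin, number of YFP alleles, sex and library batch differ or may differ between the groups and cannot be told apart.

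Quiescent HFSCs reside in the bulge of the follicle, where transcription factors such as SOX9, LHX2, TCF7L1, NFATC1 and NFIB maintain their identity. Catagen is the destructive phase of the hair cycle, and in its late part the surviving stem cells engulf dying neighbours. Enhancers are regulatory elements that lie away from promoters and open when transcription factors bind them. AP-1, a dimer of FOS and JUN family proteins, is induced by growth factors, wounding and stress, and binds many enhancers of proliferating keratinocytes. GATA3, by contrast, acts in the inner root sheath and epidermis, and LIM homeodomain factors such as LHX2 act in the bulge.

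To compare libraries of unequal depth, each library was cut to its 43758 most significant peaks by −log10 p, here called listed peaks. Before this cut, 72225 to 114726 peaks had been called per corpse culture and 43931 to 101334 per late-catagen library. Depth estimated from the scores was 6260000 to 23300000 fragments in corpse culture and 16200000 to 47600000 in late catagen. Deeper libraries did not all lie in one group, but catagen replicate 1 had the fewest peaks and set the length of the lists. The labels number the catagen replicates m1 to m4, which may stand for mice. Names stored in the files put the tag NonPhago on culture replicates 1 and 2 and Phago on 3 and 4, with numbers that repeat across the tags, so n = 4 may count fewer cultures. Catagen replicate 1 carries the tag P42 and the other 3 carry P37. Nothing else says which replicates are independent, so p-values measure the spread between these libraries only. A bulk library cannot tell fewer cells with an open site from less opening per cell.

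The listed peaks merged into 44189 regions that were present in at least 4 of the 8 libraries. Of these, 9527 (21.6%) were culture-specific, with a listed peak in all 4 cultures and none in catagen, and 6085 (13.8%) were catagen-specific. Another 14405 (32.6%) were shared by all 8. A stricter count, in which the other group had no called peak of any strength, left 6172 culture-specific regions (64.8%) and 3313 catagen-specific ones (54.4%). Libraries of one group resembled each other far more than those of the other. The Jaccard index, the share of regions common to a pair of libraries, averaged 0.712 among cultures (0.661 to 0.793), 0.610 among catagen libraries (0.529 to 0.694), and 0.349 between the groups (0.293 to 0.398). The within-minus-between difference was 0.312 (exact permutation test, one-sided p = 0.0286, the smallest that 4 against 4 libraries can give).

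The reference sequences around 9 summits are given as examples. They were picked for their motif matches after their values were seen and are not typical of their kind. Each line gives the 201 bases centred on the summit, plus strand, from the GRCm39 (mm39) assembly, with motif matches in capitals. For AP-1 the pattern was TGANTCA, and the other patterns are spelled out with the motif results, except that those of 10 or more letters are given by name. The first 5 are culture-specific and lie nearest Foxa2, a forkhead factor of endoderm (chr2:147693482-147693682); Il34, a cytokine that binds the CSF1 receptor (chr8:111542054-111542254, intron); Prss2, a trypsinogen (chr6:41525303-41525503); Runx1, a factor of hair follicle stem cell activation (chr16:92727075-92727275); and Mmp13, a collagenase induced in wounds (chr9:7258591-7258791).
Foxa2, AP-1 on either side of a SOX match: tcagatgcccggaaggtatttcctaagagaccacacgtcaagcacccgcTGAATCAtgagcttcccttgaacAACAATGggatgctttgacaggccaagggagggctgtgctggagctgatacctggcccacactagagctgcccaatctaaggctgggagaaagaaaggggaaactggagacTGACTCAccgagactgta
Il34, NRF2 then AP-1: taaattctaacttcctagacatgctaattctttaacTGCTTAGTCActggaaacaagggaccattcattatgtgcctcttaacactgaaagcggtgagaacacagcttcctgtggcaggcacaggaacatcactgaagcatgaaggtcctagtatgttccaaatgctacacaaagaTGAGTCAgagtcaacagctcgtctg
Prss2, RUNX then AP-1: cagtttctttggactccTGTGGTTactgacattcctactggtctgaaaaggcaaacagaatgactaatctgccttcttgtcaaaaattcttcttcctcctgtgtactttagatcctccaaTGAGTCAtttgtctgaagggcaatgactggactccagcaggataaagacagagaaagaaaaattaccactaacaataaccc
Runx1, AP-1 between a pair of TEAD matches: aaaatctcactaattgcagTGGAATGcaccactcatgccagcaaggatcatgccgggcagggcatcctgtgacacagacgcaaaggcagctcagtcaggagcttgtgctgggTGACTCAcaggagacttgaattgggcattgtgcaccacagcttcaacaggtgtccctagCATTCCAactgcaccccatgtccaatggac
Mmp13, AP-1 beside the summit: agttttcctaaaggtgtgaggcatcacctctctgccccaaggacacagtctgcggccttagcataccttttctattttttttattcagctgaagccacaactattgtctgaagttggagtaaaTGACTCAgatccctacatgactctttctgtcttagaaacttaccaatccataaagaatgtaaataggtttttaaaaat

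The other 4 are catagen-specific and lie nearest Filip1l (chr16:57292271-57292471); Trp63, the master factor of stratified epithelia (chr16:25764126-25764326); Nfkbia, an NF-kappaB inhibitor (chr12:55493539-55493739); and Jun, an AP-1 subunit (chr4:94956601-94956801). They are shown because GATA, LIM homeodomain and NF-kappaB matches were more frequent in regions of this kind. Even so, only 6.48, 5.06 and 0.763% of catagen-specific regions outside promoters held these matches, in this order. None of the 4 holds an AP-1 match.
Filip1l, GATA then SOX: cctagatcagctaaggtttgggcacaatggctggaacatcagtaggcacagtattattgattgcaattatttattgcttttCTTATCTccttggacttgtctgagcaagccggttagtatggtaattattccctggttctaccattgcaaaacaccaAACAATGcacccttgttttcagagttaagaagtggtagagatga
Trp63, FOX then GATA: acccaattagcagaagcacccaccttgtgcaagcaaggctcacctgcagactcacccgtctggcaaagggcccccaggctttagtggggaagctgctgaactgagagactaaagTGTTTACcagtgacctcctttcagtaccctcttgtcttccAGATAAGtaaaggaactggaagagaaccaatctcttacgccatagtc
Nfkbia, NF-kappaB then LIM homeodomain: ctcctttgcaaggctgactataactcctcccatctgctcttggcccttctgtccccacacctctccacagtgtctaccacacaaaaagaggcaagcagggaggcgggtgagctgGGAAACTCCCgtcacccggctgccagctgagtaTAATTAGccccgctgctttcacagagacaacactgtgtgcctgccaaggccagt
Jun, E-box then LIM homeodomain: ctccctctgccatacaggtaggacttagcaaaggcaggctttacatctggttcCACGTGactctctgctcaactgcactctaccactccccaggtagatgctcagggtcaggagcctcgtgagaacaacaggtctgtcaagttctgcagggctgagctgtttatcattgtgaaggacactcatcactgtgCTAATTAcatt

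Culture-specific regions lay mostly away from promoters. Of the culture-specific regions, 3% were within 1 kb of a transcription start, against 11.7% of the catagen-specific and 50.3% of the shared regions. Their median distance to a start was 32501 bp, that of catagen-specific regions 24678 bp and that of shared regions 897 bp. Introns held 44.4% of culture-specific and 38.0% of catagen-specific regions. Mean GC content was 46.3% in culture-specific, 51.0% in catagen-specific and 57.4% in shared regions. The same held library by library. Promoters took 23.6, 25.6, 25.2 and 24.7% of listed peaks in the cultures and 29.3, 29.2, 28.9 and 29.8% in late catagen (difference −4.52 percentage points; exact permutation test, two-sided p = 0.0286, the smallest possible). With all called peaks in place of equal lists, the difference was −5.11 points and the exact p 0.114.

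The strongest culture-specific regions ranked higher within their libraries than the strongest catagen-specific ones. Regions were ordered by their lowest rank in any library of their group, and the regions named here begin at rank 301 for culture and at rank 1745 for late catagen. Such a rank also depends on how alike the libraries of a group are. The catagen libraries were less alike, with a mean Jaccard index of 0.610, against 0.712 among cultures. Its part in the rank difference was not tested. Near Hhipl2, fold enrichment over the local background was 24.0, 25.7, 27.6 and 34.6 in the 4 cultures at chr1:183332626-183333170, with no called peak in any catagen library. The Foxa2 region (chr2:147693176-147693828, intergenic, 195234 bp from the start) had 20.5, 28.1, 24.1 and 25.4, again with none called in catagen. A region in an intron of Fryl (chr5:73237142-73237692) reached 20.5 to 30.5, that in Il34 18.6 to 26.5 and that near Prss2 21.2 to 37.2. The other regions named by the same rule lay nearest Eif3h, Gpr65, Ptprn2, Fam83c and Reep3. Regions are named by the nearest start, which is not evidence that the gene responds.

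Among catagen-specific regions the best ranked lay nearest Odf4 (chr11:68830141-68830966), with fold enrichments of 18.4, 21.7, 16.3 and 15.6 in the 4 catagen libraries. In 3 of the 4 cultures it held a called peak below the listed ones. An intronic region of Stox2 (chr8:47787054-47787787) had 16.2, 22.7, 13.7 and 18.2 and was called in no culture. One promoter was among these 10 regions, that of Sfxn4 (chr19:60849517-60850169), with 13.7, 22.5, 13.6 and 16.6 in catagen and weaker peaks in 2 cultures. The others lay nearest Mfap3l, Map4, Anapc15-ps, Cnih3, Nek4, Pcsk6 and Map3k20. Median fold enrichment over all listed peaks was 8.33 to 15.4 per culture and 6.40 to 11.2 per catagen library, so these levels are not compared between the groups.

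AP-1 matches near summits differed most in percentage points, while the ratio for RUNX was as large (1.83, against 1.82 for AP-1). In listed peaks outside promoters, a TGANTCA match within 100 bases of the summit was present in 48.2, 48.3, 48.8 and 49.5% of peaks in the cultures. In late catagen the share was 21.6, 31.1, 26.0 and 28.1%. Thus the groups did not overlap, and the cultures varied far less than the catagen libraries (48.7 ± 0.620% against 26.7 ± 4.02%, SD, n = 4 each). Genome windows of the same length held the motif in 6.06% of cases. Of 28 motifs searched on both strands, 5 were more frequent in every culture than in any catagen library (17.9%) and 15 were less frequent (53.6%). Each of these 20 had an exact permutation p of 0.0286, the smallest possible, and 0.0400 after Benjamini-Hochberg adjustment over the 28.

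The other motifs more frequent in culture were those of RUNX, TEAD, NRF2 and p53/p63. RUNX (TGTGGTT), bound by RUNX1 in activated HFSCs, was found in 9.53, 9.77, 9.76 and 10.3% of peaks in the cultures and in 5.16, 5.27, 5.70 and 5.43% in catagen, and in 4.73% of genome windows. TEAD (CATTCCA), the site through which YAP acts, averaged 6.89 ± 0.0950% in culture and 5.36 ± 0.142% in catagen, against 3.26% of genome windows. NRF2, the oxidative stress element, averaged 5.36 ± 0.141% and 3.49 ± 0.381%, culture first, against 1.76% of genome windows. An NRF2 match can contain an AP-1 match. In regions without AP-1, NRF2 was found in 5.62% of culture-specific and 2.81% of catagen-specific regions. The p53/p63 pattern differed least, at 1.37 ± 0.0588% in culture and 1.24 ± 0.0551% in catagen, with 0.727% of genome windows.

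**Figure D1:**
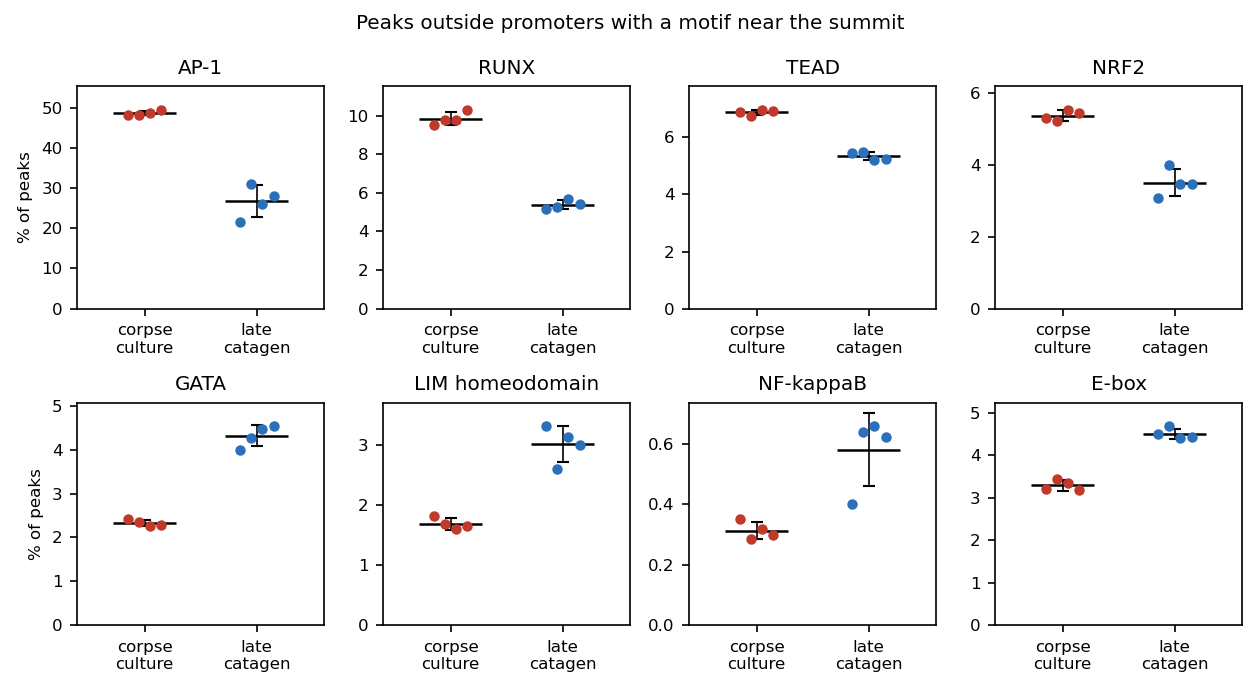
Share of listed peaks outside promoters (%, y axis) with a match within 100 bases of the summit, for 8 motifs. Points are the 4 libraries of corpse culture (red, left) and of late catagen (blue, right), and bars are mean ± SD. AP-1 lies between 48.2 and 49.5% in culture and between 21.6 and 31.1% in catagen, while GATA lies between 2.27 and 2.43% in culture and between 4.01 and 4.54% in catagen.

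GATA, LIM homeodomain and NF-kappaB motifs were among the 15 less frequent in culture. The motif of GATA factors, with the letters AGATAAG, was found in 2.43, 2.36, 2.27 and 2.28% of peaks in the cultures, against 4.01, 4.27, 4.48 and 4.54% in catagen. LIM homeodomain sites (CTAATTA), the kind LHX2 binds, were found in 1.82, 1.69, 1.60 and 1.65%, against 3.32, 2.61, 3.14 and 3.0%. Both shares in culture were below those of random genome windows, 2.99% for GATA and 2.54% for the LIM homeodomain. NF-kappaB averaged 0.314 ± 0.0277% in culture and 0.581 ± 0.121% in catagen, and the E-box (CACGTG) 3.29 ± 0.124% in culture and 4.50 ± 0.125% in catagen, where genome windows had 0.139% and 1.99%. NFAT (TGGAAAA), bound by NFATC1 in the bulge, averaged 4.64 ± 0.248% in culture and 5.74 ± 0.664% in catagen. TCF/LEF (CTTTGAT), the WNT-responsive element, averaged 2.63 ± 0.0562% in culture and 3.07 ± 0.123% in catagen. FOX (TGTTTAC), STAT (TTCCNGGAA), C/EBP (TTGCGCAA), CRE (TGACGTCA) and GRHL (AACNGGTT) were also lower, as were the GC-rich patterns of KLF (GGGTGTGG), SP (GGGGCGGG), E2F (TTCCCGCC) and NRF1. GC content of the same peaks averaged 48.3 ± 0.559% in culture and 49.9 ± 0.739% in catagen (exact p = 0.0286), and its part in the shares of these motifs was not tested. When promoters were included, 8 motifs in place of 15 were lower without overlap. The 5 culture-high motifs still did not overlap, with AP-1 higher by 18 points, but with fewer motifs apart every adjusted p was above the threshold, at 0.0615 for AP-1, TEAD, RUNX, NRF2, p53/p63, GATA and the LIM homeodomain.

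For 8 motifs the groups overlapped. SOX (AACAATG) was found in 4.63 ± 0.0954% of peaks in culture and 4.66 ± 0.149% in catagen. CTCF was found in 4.21 ± 0.251% and 4.41 ± 1.04%, and IRF in 1.75 ± 0.0570% and 1.74 ± 0.138%, culture first. NFI averaged 1.29 ± 0.134% and 1.15 ± 0.147%, and ETS (CCGGAAGT) 0.363 ± 0.0248% and 0.318 ± 0.0338%, in the same order. Their ratios, 1.13 and 1.14, were larger than the 1.10 of p53/p63, although the groups overlapped. Direct repeats bound by RXR heterodimers were rare. DR1, DR2 and DR5 were found in 0.0342, 0.0213 and 0.0312% of peaks in culture and in 0.0428, 0.0161 and 0.0275% in catagen. With so few matches a difference was not detectable, and these strict patterns are a small part of what RXR can bind.

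Region by region, 61.5% of culture-specific regions outside promoters held an AP-1 match, 5683 of 9241, against 17.8% of catagen-specific (957 of 5374) and 44.1% of shared ones. RUNX was found in 13.5, 4.45 and 7.42% of the 3 sets in this order, GATA in 2.11, 6.48 and 2.52%, and the LIM homeodomain in 1.53, 5.06 and 1.89%. These follow from the same peaks as the shares per library and are not further evidence. Among culture-specific regions, RUNX was present in 11% of those with AP-1 and 17.5% of those without, and TEAD in 6.35 and 10.7%. AP-1 or RUNX was present in 68.2% of culture-specific and 21.6% of catagen-specific regions.

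**Figure D2:**
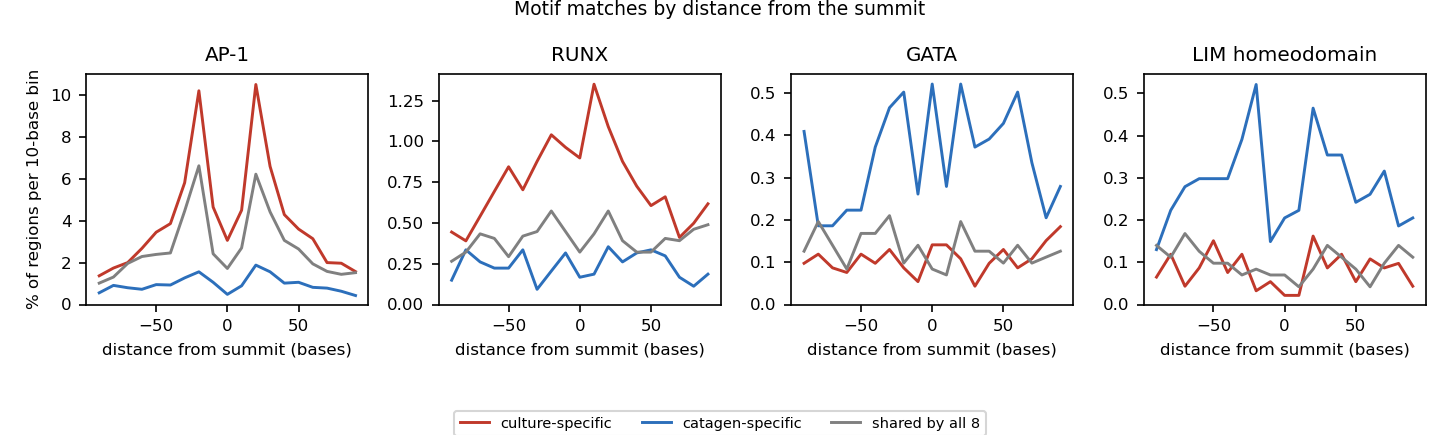
Share of regions outside promoters (%, y axis) with a motif match in each 10-base bin of distance from the summit (x axis, bases), for culture-specific (red), catagen-specific (blue) and shared (grey) regions. In culture-specific regions AP-1 peaks at 10.2 and 10.5% in the bins 20 bases to either side of the summit and falls to 3.06% at the summit itself. In catagen-specific regions the same bins hold 1.56 and 1.88%, with 0.484% at the summit.

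AP-1 matches lay close to the summits. In culture-specific regions 10.2 and 10.5% had one in the bins 20 bases to the left and right of the summit, against 3.06% at the summit and 1.37 to 1.57% in the outermost bins. Catagen-specific regions had 1.56 and 1.88% in the flanking bins and 0.484% at the summit. In culture-specific regions RUNX was highest in the bin 10 bases right of the summit, at 1.35%. Catagen-specific regions had 0.186% in that bin and were highest 20 bases right of the summit, at 0.354%.

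Genes of the HFSC transcription factors held fewer listed peaks in culture. Of 19 factors tested, 14 had fewer listed peaks in culture and none had more, with a median difference of −0.74 on the log2(peaks + 1) scale. Over all 17250 genes tested by limma, 2617 (15.2%) had more and 2513 (14.6%) fewer at an adjusted p under 0.05, with a median difference of 0.00. The window of a gene covered its body with 50 kb before its start and 5 kb past its end. Summed over the list, the windows held 114 to 123 peaks per culture and 196 to 218 per catagen library, without overlap. Sums over all genes did not overlap either, at 65011 to 67343 per culture and 68018 to 70975 per catagen library. The 19 genes tested held 53 catagen-specific and 15 culture-specific regions. Of all genes tested, 39.1% held a culture-specific and 29.0% a catagen-specific region, against 9 and 14 of the 19 factors tested. The factors were chosen with results of these data known, and part of the windows overlap those of other genes. Of shared regions nearest a listed factor and past the threshold, most were higher in culture. So were most of all shared regions past it outside promoters, 941 higher against 199 lower. The direction was therefore not particular to the factors. Examples on the normalized log2 scale were an intron of Tcf7l2 (1.13, adjusted p = 0.000255) and an intron of Gli2 (0.65, adjusted p = 0.0335). A region nearest Foxp1 was lower (−0.74, adjusted p = 0.00758), while others nearest Foxp1 were higher.

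Sox9, which specifies the bulge and keeps HFSCs from differentiating, had 1 listed peak in each culture, against 5, 4, 6 and 5 in late catagen (difference −1.57 ± 0.10 (SE), adjusted p = 3.70e-05). Its promoter was open in all 8 libraries, so the loss lay outside it. A catagen-specific region 14349 bp from the start (chr11:112657756-112659236) had fold enrichments of 7.35, 10.3, 7.19 and 9.63 and no called peak in culture. Another, 6363 bp away (chr11:112678877-112679643), held an NF-kappaB match and had 6.63, 9.87, 7.64 and 7.94. Of distal shared regions outside the window, 3 passed the threshold, and all 3 were higher in culture. Most shared regions past it outside promoters were also higher. The region 166389 bp from Sox9 had 14.2, 18.2, 22.8 and 26.0 in culture and 4.07, 7.37, 6.27 and 7.14 in catagen (1.30 ± 0.18 on the normalized log2 scale, adjusted p = 0.000255). Those at 278974 and 641240 bp differed by 0.75 and 0.54 (adjusted p = 0.0207 and 0.0338).

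Lhx2, a LIM homeodomain factor of bulge identity, had no listed promoter peak in culture. Peaks in its window numbered 1, 2, 2 and 1 in the cultures, against 5, 6, 6 and 4 in catagen (difference −1.34 ± 0.20, adjusted p = 0.00283), and with the shorter lists tried as an alternative it was −0.65 and missed the threshold (adjusted p = 0.184). The promoter region (chr2:38240349-38241403) was listed in all 4 catagen libraries, with fold enrichments of 13.3, 9.41, 7.45 and 6.43, and in no culture, although 3 cultures had a weaker called peak there. Nfatc1, which holds HFSCs in quiescence, had 3 peaks in each culture and 14, 15, 11 and 8 in catagen (−1.67 ± 0.18, adjusted p = 0.000789). Nfib, a factor that keeps HFSC super-enhancers active, had 11, 7, 7 and 6 in culture and 29, 25, 29 and 29 in catagen (−1.76 ± 0.17, adjusted p = 0.000453), with 10 catagen-specific regions and no culture-specific one. Nfib lies on chromosome 4, which held fewer listed peaks in culture as a whole, and the part of this in its count was not tested. Tcf7l1, a WNT repressor of the bulge, had 8, 8, 9 and 7, against 14, 14, 17 and 14 (−0.81 ± 0.09, adjusted p = 0.000914, and −0.32 with 0.196 for the shorter lists).

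Of 20 surface and niche genes of the bulge, 2 rose (10%, against 15.2% of all genes) and 6 fell (30.0%, against 14.6%). Over the alternatives 0 to 2 rose and 1 to 7 fell. Cd200, an immune-inhibitory surface protein of bulge cells, had no listed peak in any culture and 5, 3, 4 and 4 in catagen (−2.31 ± 0.12, adjusted p = 1.25e-05). Its promoter (chr16:45228762-45229656) had fold enrichments of 7.63, 9.04, 5.29 and 6.75 in catagen and was called in no culture. Fst, which encodes the activin antagonist follistatin, had 0, 1, 0 and 0 in culture and 4, 5, 5 and 4 in catagen (−2.20 ± 0.25, adjusted p = 0.0010). Where a group has no peak, the size of such a difference depends on the 1 that was added. Krt24, a keratin of the bulge, went up instead, with 3, 4, 4 and 3 peaks in culture and 2, 1, 1 and 1 in catagen (1.01 ± 0.17, adjusted p = 0.00449), but 0.29 (adjusted p = 0.351) with 10 kb upstream. Cd34, a surface marker of the bulge, had 2 peaks in each culture and 5, 2, 2 and 3 in catagen, and did not pass the test (adjusted p = 0.276). Krt15 had 2, 5, 4 and 5, against 7, 6, 5 and 6 (adjusted p = 0.140), which passed at 0.0175 (difference −1.40) with a window of 10 kb upstream.

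**Figure D3:**
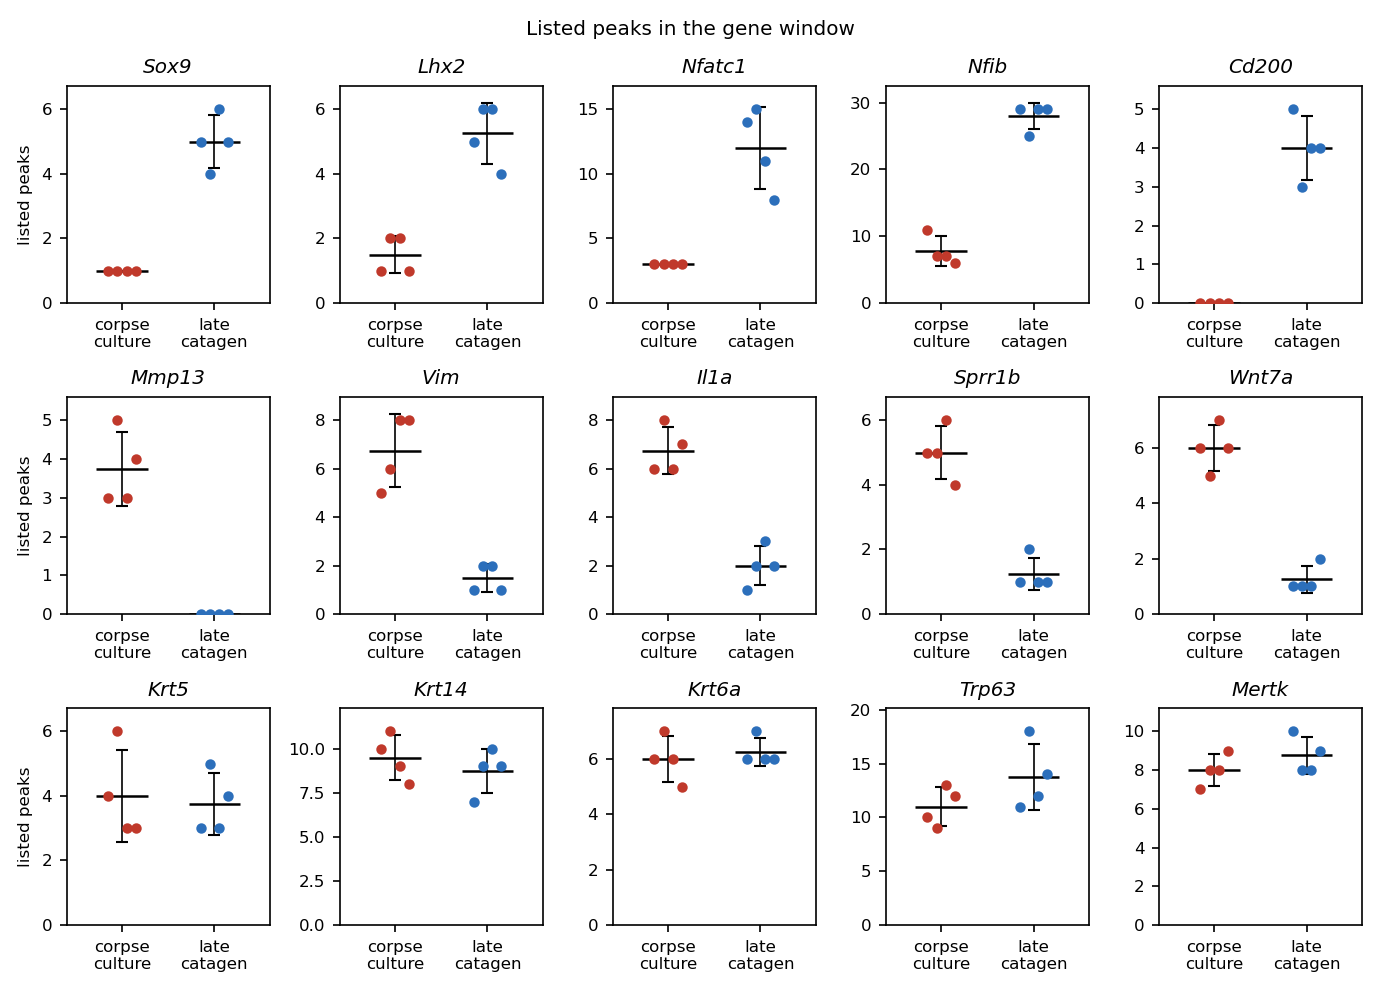
Listed peaks in the gene window (number, y axis) for 15 genes. Points are the 4 libraries of corpse culture (red, left) and of late catagen (blue, right), and bars are mean ± SD. In the top row, from Sox9 to Cd200, every catagen library lies above every culture; in the middle row, from Mmp13 to Wnt7a, every culture lies above every catagen library; in the bottom row the groups overlap.

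Basal keratinocyte genes did not pass the test. Krt5 and Krt14, the basal keratins, had 4, 6, 3 and 3 and 10, 11, 9 and 8 peaks in the cultures, against 3, 5, 3 and 4 and 7, 9, 10 and 9 in catagen. Their promoters were open in all 8 libraries, and adjusted p was 0.896 and 0.548. Trp63 had 10, 9, 13 and 12, against 11, 18, 12 and 14 (−0.29 ± 0.17, adjusted p = 0.255). Both groups thus held open chromatin at genes that define basal and follicle keratinocytes, while no culture had a listed promoter peak at Lhx2 or Nfatc1, against 4 and 3 catagen libraries. Among 14 epidermal genes tested, 5 fell (35.7%, against 14.6% of all genes) and none rose (against 15.2%). Krt1, a keratin of differentiating epidermis, had 1 peak in each culture and 5 in each catagen library (−1.58 ± 0.02, adjusted p = 1.19e-08, and −1.04 with 0.175 for the shorter lists), and Krt10, its partner, 2, 2, 1 and 1, against 4, 4, 3 and 4. Krt1 lies in a cluster with Krt77 and Krt73, whose windows share peaks with it and fell as well.

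Of 28 wound and stress genes tested, 7 rose and 4 fell, with a median difference of 0.16. The shares were 25 and 14.3%, against 15.2 and 14.6% of all genes, so the share that fell was that of the background. Mmp13 had 3, 5, 3 and 4 peaks in the cultures and none in catagen (2.23 ± 0.14, adjusted p = 3.77e-05). Its region at chr9:7258420-7258875 had fold enrichments of 13.2, 19.4, 20.4 and 24.7 in culture, with AP-1 26 bases from the summit. Il1a, an alarmin of keratinocytes, had 6, 8, 6 and 7, against 1, 2, 3 and 2 (1.40 ± 0.21, adjusted p = 0.00339), and its promoter was listed in 4 of 4 cultures and 0 of 4 catagen libraries. Sprr1b, a cornified envelope protein raised in wounds, had 5, 5, 6 and 4, against 1, 2, 1 and 1 (1.43 ± 0.17, adjusted p = 0.00124). Vim, an intermediate filament of migrating and mesenchymal cells, had 5, 6, 8 and 8, against 1, 2, 2 and 1 (1.64 ± 0.21, adjusted p = 0.00169), which with 10 kb upstream was 0.79 and missed the threshold (adjusted p = 0.130). Krt6a, the classic wound keratin, had 6, 7, 6 and 5 peaks in culture and 6, 7, 6 and 6 in catagen (adjusted p = 0.683).

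Of 12 genes that encode AP-1 factors, 1 rose (8.33%, against 15.2% of all genes) and 5 fell (41.7%, against 14.6%). Fos had 5, 3, 4 and 5 peaks in the cultures and 11, 9, 7 and 12 in catagen (−1.03 ± 0.20, adjusted p = 0.00907). With 10 kb upstream Fos was −0.48 (adjusted p = 0.253), and 2 of the 12 genes fell. The promoters of Fos and Fosl2 were listed in all 8 libraries. Fosl1 had 6, 8, 9 and 8, against 8, 7, 6 and 6 (adjusted p = 0.374), and Jun 4, 5, 5 and 5, against 8, 4, 5 and 5 (adjusted p = 0.579). Batf3, an AP-1 family member best known in dendritic cells, was the one that rose, with 3, 2, 3 and 3 peaks in culture and 1, 2, 1 and 1 in catagen (0.75 ± 0.17, adjusted p = 0.0175). Its adjusted p was 0.0519 without corpse culture replicate 1, 0.0508 without catagen replicate 3 and 0.0504 without catagen replicate 4. Among 15 genes of the YAP and TEAD group, 1 rose (6.67%, against 15.2% of all genes) and 6 fell (40.0%, against 14.6%). Crim1 had 9, 8, 7 and 6, against 16, 14, 14 and 14 (−0.88 ± 0.11, adjusted p = 0.00176), and Wwtr1, which encodes the YAP partner TAZ, 4, 8, 7 and 8, against 11, 15, 17 and 13 (−0.98 ± 0.23, adjusted p = 0.0185). Without catagen replicate 2 or 3 the adjusted p of Wwtr1 was 0.0526 or 0.0516.

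Of 15 integrin, laminin and hemidesmosome genes, 3 rose (20%) and 1 fell (6.67%), which with so few genes is near the 15.2 and 14.6% of all genes. Col7a1, the anchoring fibril collagen, had 7, 7, 5 and 6 peaks in culture and 3 in each catagen library (0.85 ± 0.10, adjusted p = 0.000954, and 0.35 with 0.210 for the shorter lists), and its promoter was listed in 4 cultures and 0 catagen libraries. Itgb1, the integrin beta chain of basal keratinocytes, had 6, 11, 8 and 8, against 2, 5, 4 and 3 (1.06 ± 0.26, adjusted p = 0.0210, and 0.0583 without catagen replicate 4). Of 26 genes of WNT, BMP and TGF-beta signalling, 2 rose (7.69%, against 15.2% of all genes) and 5 fell (19.2%, against 14.6%). Wnt7a, a ligand that keratinocytes make, had 6, 5, 7 and 6, against 1, 1, 1 and 2 (1.65 ± 0.16, adjusted p = 0.000484). The promoter of Bmp7, a BMP ligand named after its values were seen, was open in all 8 libraries but higher in culture, with fold enrichments of 29.6, 28.5, 24.4 and 24.3, against 4.41, 8.81, 7.67 and 11.1 (1.36 ± 0.22 on the normalized log2 scale, adjusted p = 0.000676).

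Of 24 inflammatory genes, 5 rose (20.8%, against 15.2% of all genes) and 7 fell (29.2%, against 14.6%). Ccl2, a monocyte attractant, had no listed peak in culture and 3, 5, 3 and 5 in catagen (−2.29 ± 0.16, adjusted p = 8.66e-05), its promoter (chr11:81926086-81926965) with fold enrichments of 10.7, 8.19, 5.43 and 8.14. Cxcl1, a neutrophil attractant, had 6, 5, 6 and 7 in culture and 0, 2, 2 and 2 in catagen (1.61 ± 0.39, adjusted p = 0.0207, and 0.0548 without corpse culture replicate 1), but 0.69 (adjusted p = 0.129) with 10 kb upstream. Tlr4, the receptor for bacterial lipopolysaccharide, had 3, 3, 4 and 5, against 1, 0, 1 and 0 (1.73 ± 0.31, adjusted p = 0.00632). Among 24 cell cycle genes 6 rose and 6 fell. Cdkn2b, a cell cycle inhibitor of the Ink4 locus, had 9, 8, 6 and 7, against 2, 4, 3 and 3 (1.10 ± 0.18, adjusted p = 0.00444), and its window overlaps that of Cdkn2a. Top2a, a gene of proliferating cells, had 3, 2, 2 and 1, against 8, 6, 6 and 5 (−1.30 ± 0.23, adjusted p = 0.00591), but −0.54 (adjusted p = 0.0661) with 10 kb upstream.

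Of 15 engulfment receptors, 2 rose and 3 fell, and of 8 bridging proteins 1 rose and 2 fell, counts that lie near the 15.2 and 14.6% of all genes. Of 20 genes of the phagocytic cup 7 rose (35.0%) and 3 fell (15%), with a median difference of 0.12. Cup genes summed to 122 to 126 peaks per culture and 102 to 107 per catagen library, with 29 culture-specific and 7 catagen-specific regions. Mertk and Axl, receptor kinases that recognise dying cells through bridging proteins, had 7, 8, 8 and 9 and 6, 7, 5 and 5 peaks in the cultures, against 10, 8, 8 and 9 and 6, 7, 9 and 7 in catagen (adjusted p = 0.384 and 0.167). The Mertk promoter, open in all 8 libraries, was nevertheless stronger in culture, with fold enrichments of 13, 16.3, 20.3 and 24.4, against 9.34, 10.3, 6.6 and 8.80 (0.67 ± 0.17 on the normalized log2 scale, adjusted p = 0.0124). Tyro3, the third receptor of that family, had 1, 1, 2 and 1, against 5, 5, 6 and 4 (−1.43 ± 0.17, adjusted p = 0.00124), and −0.65 (adjusted p = 0.0818) with the shorter lists. The bridging proteins Gas6 and Mfge8 had 0, 3, 3 and 2 and 3, 4, 3 and 3 in culture, against 4, 4, 5 and 4 and 3, 3, 3 and 3 in catagen (adjusted p = 0.148 and 0.467), and Gas6 passed at 0.0402 without corpse culture replicate 1. A shared intronic region of Mfge8 was higher in culture (0.71 ± 0.19, adjusted p = 0.0179). Edil3, another phosphatidylserine-binding bridge, had 3, 5, 4 and 4 peaks in culture and none in catagen (2.31 ± 0.12, adjusted p = 1.25e-05). Wasl, an activator of actin branching, had 6, 8, 7 and 8, against 1 in each catagen library (2.04 ± 0.08, adjusted p = 3.89e-06). Ptk2, the focal adhesion kinase, had 12, 11, 11 and 11, against 6, 7, 5 and 6 (0.81 ± 0.09, adjusted p = 0.000729). Of 30 phagosome and lysosome genes, 1 rose (3.33%) and 4 fell (13.3%), the latter share near the 14.6% of all genes.

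Retinoid and lipid genes included the receptor the study centres on. Rxra, whose product partners retinoic acid receptors, had 9, 12, 10 and 8 peaks in the cultures and 14, 15, 21 and 17 in catagen (−0.72 ± 0.16, adjusted p = 0.0151). With a replicate block in the fit, this difference missed the threshold. Both groups are labelled Rxra WT, and a promoter of the gene was listed in all 8 libraries. Another promoter region (chr2:27614638-27615035) had fold enrichments of 8.42, 7.19, 6.31 and 7.10 in catagen and no called peak in culture. Rarg, its partner receptor, had 5, 10, 8 and 7, against 10, 8, 10 and 6 (adjusted p = 0.611). Of 21 retinoid genes tested, 4 rose and 2 fell, which with so few genes is near the 15.2 and 14.6% of all genes. Those that rose included Cyp26a1 and Cyp26c1, neighbouring retinoic acid hydroxylases with 1 shared peak in each culture and none in catagen (1.00 ± 0.03, adjusted p = 2.74e-07). Among 18 genes of LXR, PPAR and lipid handling, 4 rose and 4 fell (22.2% each, against 15.2 and 14.6% of all genes). Abca1, a cholesterol exporter on chromosome 4, had 2, 2, 4 and 3, against 9, 7, 11 and 10 (−1.47 ± 0.21, adjusted p = 0.00262).

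Of 22 Hox genes tested, 10 fell (45.5%, against 14.6% of all genes) and none rose (against 15.2%), with a median difference of −0.59. Their windows held 14 catagen-specific regions and 1 culture-specific one. Hoxb2 had 3, 1, 1 and 1 peaks in the cultures and 6, 8, 9 and 6 in catagen (−1.78 ± 0.27, adjusted p = 0.00334). Summed over the 24 genes, windows held 48 to 61 peaks per culture and 85 to 116 per catagen library, with neighbouring genes of a cluster sharing many of them. Constitutive genes served as a background: of 14 tested, 1 rose (7.14%, against 15.2% of all genes) and 3 fell (21.4%, against 14.6%), with a median of −0.07.

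The 10 genes in each direction with the smallest adjusted p had nearly all the same count in every library of a group, which makes their standard errors very small (0.02 to 0.05). Those that rose were Myoz2, Zfpm2, B4galt6, Prl2c2, Prl2c3 and 5 Rhox genes of the X chromosome (Rhox2h, Rhox3h, Rhox5, Rhox6 and Rhox7a), with 4 or 5 peaks in every culture and none in any catagen library. The Rhox windows overlap one another, and the Prl2c copies are near-identical, so reads could be split between them. Those that fell were Uty (Y-linked, with the cultured lines stated to be female), Krt1, Krt73, Chmp5, Krt77, Pknox2, Cachd1, Atg14, Cyp39a1 and ENSMUSG00000144331. Cachd1, on chromosome 4, had 1 peak in each culture and 11, 13, 12 and 13 in catagen (−2.73 ± 0.05, adjusted p = 1.54e-07), and its promoter was listed in catagen alone. Of 11554 promoters with a listed peak in at least 4 libraries, 140 (1.21%) were listed in 4 cultures and 0 catagen libraries, 502 (4.34%) the other way round, and 8136 (70.4%) in all 8.

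Regions open in all 8 libraries also differed in strength. On quantile-normalized log2 fold enrichment, limma called 1087 of 14405 shared regions higher in culture (7.55%) and 617 lower (4.28%). Of the higher ones 13.4% were promoters, of the lower ones 67.7%, and of all shared regions 50.3%. AP-1 was present in 61.3% of the higher and 26.1% of the lower regions outside promoters, against 44.1% of all. Both examples that follow were chosen after their values were seen. In an intron of Pak6 (chr2:118499701-118500095), a kinase of the p21-activated family, fold enrichment was 19.3, 23.3, 22.0 and 23.4 in culture and 3.63, 7.11, 5.33 and 5.79 in catagen (1.70 ± 0.21, adjusted p = 0.000226). An intronic region of Slc39a14, a metal transporter gene on chromosome 14 (chr14:70624930-70625557), had 9.16, 10.8, 14.4 and 12.2 in culture and 20.6, 24.8, 16.8 and 16.3 in catagen (−1.15 ± 0.15, adjusted p = 0.000255). The counts rest on few libraries. They were 586 and 276 without corpse culture replicate 2, 642 and 314 without replicate 4, and 606 and 199 without catagen replicate 3, the regions higher in culture first. Without catagen replicate 1 or 4 the lower regions numbered 953 or 287.

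The regions were then looked up among the listed peaks of libraries that had not defined them. In the 10 other culture libraries with over 40000 peaks (Rxra cKO with corpses, Rxra WT with BEL-treated corpses, and both genotypes with recombinant AA, LPC and RA), 82.6 to 92.3% of culture-specific regions held a peak. In the 5 other in vivo libraries of that depth (late catagen Rxra cKO, late catagen wild type and late anagen), 1.23 to 10.7% did. Catagen-specific regions held a listed peak in 4.42 to 10% of cases in those cultures and in 58.6 to 86.4% in vivo. The late anagen library had 67.6% of them, so the name marks the contrast with corpse culture and not a hair cycle stage. Against all called peaks of those cultures, 17.0 to 41.3% of catagen-specific regions held one. Cultures without corpses but with AA, LPC and RA thus had most of the culture-specific regions (82.6, 84.4 and 91.2%). The medium libraries had 4111 to 5709 peaks on the autosomes and sex chromosomes, too few to show whether the regions were open before corpses were added.

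**Figure D4:**
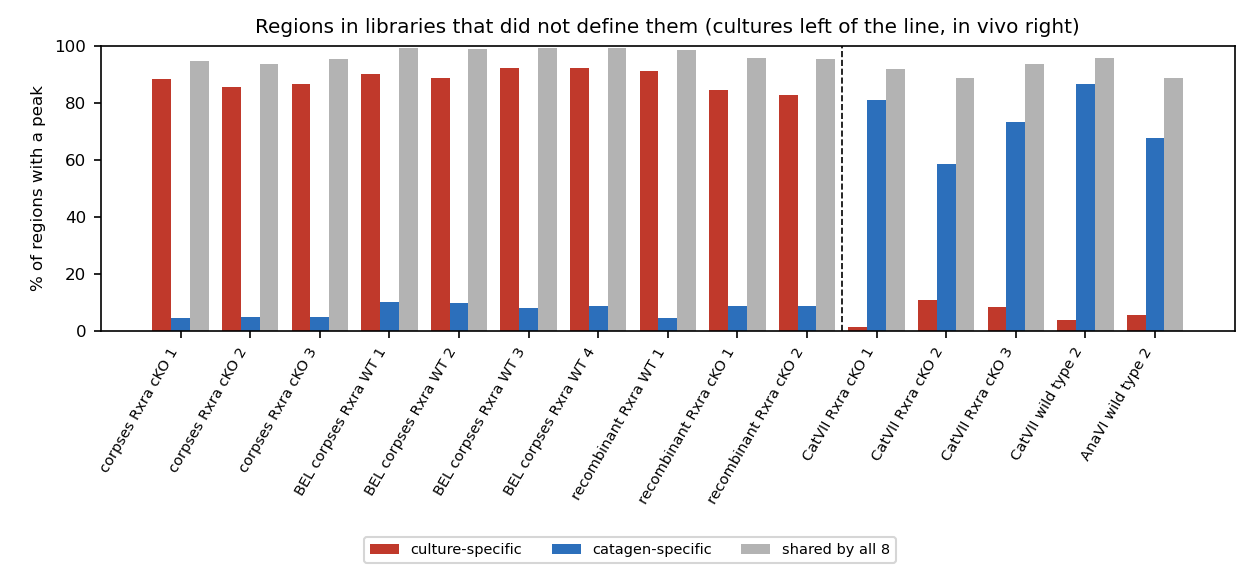
Share of culture-specific (red), catagen-specific (blue) and shared (grey) regions with a peak (%, y axis) in each library of over 40000 peaks that did not define them (x axis), with cultures left of the dashed line and in vivo libraries right of it. Culture-specific regions lie between 82.6 and 92.3% in the cultures and between 1.23 and 10.7% in vivo, and catagen-specific regions between 4.42 and 10% in the cultures and between 58.6 and 86.4% in vivo.

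Listed peaks were unevenly divided among chromosomes. Of 21 chromosomes, 8 had a higher and 6 a lower share of peaks in every culture than in any catagen library (exact permutation test, adjusted p = 0.0429 each). Chromosome 14 held 2.53, 2.48, 2.58 and 2.45% of peaks in the cultures and 3.56, 3.61, 3.45 and 3.62% in catagen, a ratio of 0.705. In 6 of its 7 bins of 20 Mb the culture mean was lower, with ratios from 0.552 to 1.37. Chromosome 4 held 5.11, 5.09, 5.28 and 5.04%, against 6.50, 6.68, 6.74 and 6.59%, a ratio of 0.774. In other libraries of over 40000 peaks, chromosome 14 held 2.41 to 2.73% in cultures and 3.27 to 3.90% in vivo, while chromosome 4 held 5.40 to 5.46% in the other Rxra WT cultures and 6.0 to 6.13% in Rxra cKO cultures. On chromosome 14, 36.9% of genes tested had fewer peaks in culture and on chromosome 4 26.7%, against 14.6% of all genes. The Y chromosome held 0.0411, 0.0114, 0.0137 and 0.00686% of peaks in the cultures, against 0.208, 0.0617, 0.176 and 0.128% in catagen. Its promoters of Eif2s3y, Uty and Ddx3y were listed in all 4 catagen libraries and called in no culture. The cultured lines are stated to be female, so for Y-linked genes sex and culture cannot be told apart. The part of these chromosome-wide differences in the gene results was not tested. On the autosomes alone, 9365 regions were culture-specific and 6018 catagen-specific.

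**Figure D5:**
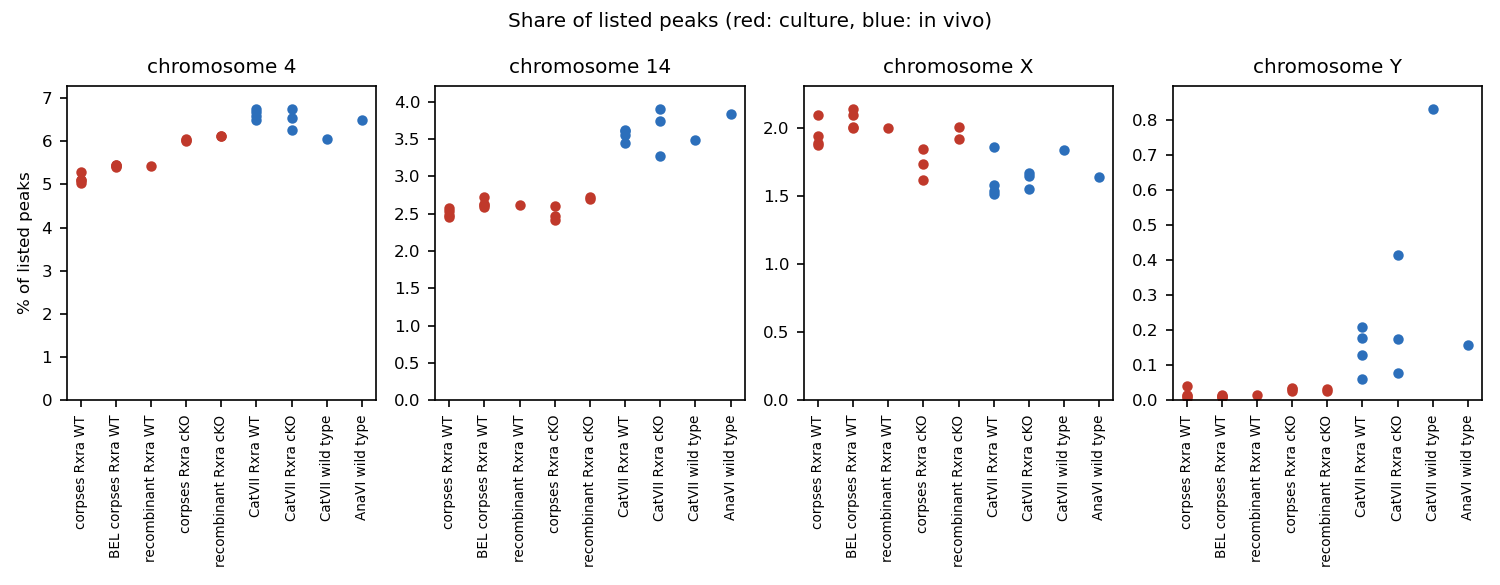
Share of listed peaks (%, y axis) on chromosomes 4, 14, X and Y in each library of over 40000 peaks (points), by group (x axis), with cultures in red and in vivo libraries in blue. On chromosome 14 all cultures lie between 2.41 and 2.73% and all in vivo libraries between 3.27 and 3.90%. On chromosome 4 the Rxra WT cultures lie between 5.04 and 5.46%, below the Rxra cKO cultures.

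Markers of other cells had peaks in both groups. Fibroblast markers, of interest because of the feeder layer, had 9 to 13 peaks summed over 14 genes per culture and 10 to 14 per catagen library, and Col1a2, Col3a1, Lum and Twist1 had none in any library. Of 8 fibroblast genes tested 1 rose and 1 fell (12.5% each, near the 15.2 and 14.6% of all genes). Melanocyte markers had 5 to 7 peaks over 8 genes per culture and 10 to 16 per catagen library. Dct, a melanin enzyme, had none in culture and 5, 2, 2 and 1 in catagen (−1.69 ± 0.31, adjusted p = 0.00770), while Tyr, Tyrp1 and Ednrb had none in any library. Immune markers had 33 to 38 peaks per culture and 33 to 46 per catagen library, with none at Lyz2, and endothelial markers 21 to 29 and 26 to 33. Langerhans cell marker Cd207, named after its values were seen, had 0, 2, 3 and 2 peaks in catagen and none in culture. Of the immune genes tested, 1 rose and 1 fell. Spi1 rose, with 7, 8, 8 and 8 peaks in culture and 5, 6, 5 and 5 in catagen (0.49 ± 0.07, adjusted p = 0.00241), but reversed with the shorter lists. Fcer1g fell, with 3, 4, 4 and 3, against 6, 8, 5 and 6 (−0.68 ± 0.15, adjusted p = 0.0139). The promoter of Csf1r was listed in 4 cultures and 0 catagen libraries.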

How the data were processed

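ATAC-seq peak lists of 4 corpse cultures and 4 late-catagen samples were compared, with the other libraries used for lookup. The authors mapped the reads with BWA-MEM (0.7.18) onto mm39, filtered them with SAMtools (1.17, with 1.9 also listed in the submitters' processing notes), and called peaks per library with MACS3 (3.0.0) on paired fragments without a control. The deposited lists give fold enrichment at the summit, a ratio to the local background, together with −log10 p and −log10 q. Read counts were not used here, so no count model was fitted, and stronger signal cannot be told from a more efficient library.

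The 43758 peaks with the highest −log10 p on the autosomes and sex chromosomes were kept per library and merged where they overlapped by at least 1 bp. Gene windows came from GENCODE on GRCm39, the same assembly as mm39. For each gene, log2(listed peaks + 1) was fitted with limma (3.58.1, trend and robust, R 4.3.3, statmod 1.5.0), among genes with a peak in at least 4 libraries. For shared regions, quantile-normalized log2 fold enrichment was fitted in the same way. P-values were adjusted by the Benjamini-Hochberg method over all features, with a threshold of 0.05. Motif and chromosome shares were compared by exact permutation tests over the 8 libraries. Scripts ran in Python 3.11.15 with numpy 2.4.6, pandas 2.3.3, scipy 1.17.1 and matplotlib 3.10.9 and were tested on simulated data.

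Named regions were the 10 per group with the best lowest rank in sequence that occurs once in the genome. Named genes were the 10 in each direction with the smallest adjusted p, up to 4 per gene list with a group-specific region or past the threshold, and 19 fixed genes such as Sox9, Krt5 and Mertk. The groups, gene lists and motifs were chosen with earlier results of these data known. Of 406 list genes 403 were found by symbol. Alternatives were all called peaks, shorter lists, a −log10 q minimum of 10, other windows, a pseudocount of 0.5, other normalization, a replicate block and leaving out each library.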

Additional observations from a re-analysis of the deposited data

Results flagged for a closer look

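Among 114 groups of 4 libraries examined for a single library far from the rest, 3 had one, where chance gives about 1 in 20. Catagen replicate 1 had the NF-kappaB motif in 0.401% of peaks, below the other catagen libraries at 0.625 to 0.659%. It was still above every culture, at 0.286 to 0.350%. Catagen replicate 3 had the RXR DR2 repeat in 0.0289% of peaks. Culture replicate 3 had 4.21% of its peaks on chromosome 17, against 4.14 to 4.15% in the other cultures.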

How the results depend on the processing

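The Jaccard difference stayed past its threshold, and the numbers of motifs and of chromosomes higher in culture stayed within 1.5 times the reported ones, under the alternatives run. Culture-specific regions numbered 14480 with all called peaks, 4885 with lists of 21879 peaks, 3072 with a −log10 q of at least 10 and 6172 with absence judged on all called peaks. Catagen-specific regions numbered 2635, 1554 and 3313 under the last 3 of these. The promoter difference was −5.11 points with all called peaks (exact p = 0.114), and 8 motifs were lower when promoters were included, with 0.0615 as the lowest adjusted p among the motifs past the threshold outside promoters. Genes higher in culture numbered 1647 with these shorter lists, and genes lower 1664 with 10 kb upstream. The fits were repeated, by a choice made after seeing the data, with only the cultures stored as NonPhago or only those stored as Phago. Shared regions then numbered 526 and 354 higher and 367 and 211 lower, and genes 944 and 1103 higher and 1385 and 1530 lower. Directions reversed for Anxa1 (−0.66) and Pmel (0.10) with 10 kb upstream, and for Sox10 (1.00), Spi1 (−0.15) and Tfeb (0.16) with these shorter lists. The causes were not tested.

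Leaving out each library in turn gave 9774 to 11095 culture-specific and 6256 to 8935 catagen-specific regions, 586 to 1300 shared regions higher and 199 to 953 lower, and 1750 to 2697 genes higher and 1771 to 2638 lower. Of 97 named genes past the threshold, 34 stayed past it under every setting. Over the settings, 7 to 15 HFSC factors, 2 to 10 Hox genes and 1 to 5 AP-1 genes were lower. Equal replicate numbers did not pair the libraries: same-number correlations of deviations were −0.209 to 0.246 over shared regions. With a replicate block, 1301 shared regions were higher and 860 lower, genes 2230 and 1982, and the adjusted p of Rxra was 0.0524. Peak lists limit what can be seen, since a region below a library's list may still be open.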

Other observations

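Some genes held many group-specific regions, and they are named here after their values were seen. Cubn, an endocytic receptor best known in kidney and intestine, held 12 culture-specific regions and no catagen-specific one, with 17, 18, 17 and 18 listed peaks in the cultures and 1, 2, 3 and 2 in late catagen (2.67, adjusted p = 0.000110 by limma). Nrg1, an ERBB receptor ligand, held 9, with 24, 21, 21 and 21 peaks in culture and 3, 6, 5 and 3 in catagen (2.16, adjusted p = 0.000393). Adam12, a metalloprotease, held 8 (3.13, adjusted p = 0.000449). In the other direction, Kank1, a gene of the cell cortex, held 12 catagen-specific regions and 1 culture-specific one (−1.42, adjusted p = 3.68e-05). Ackr4, a scavenging chemokine receptor, held 7 (−2.55, adjusted p = 2.04e-05), and Adgrl2, an adhesion receptor, also 7 (−2.48, adjusted p = 7.55e-05). Fgfr2 held both kinds, 19 culture-specific and 21 catagen-specific regions, in an annotated window of 3017 kb.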
